A study of Mus musculus with 96 samples.

Results

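Mouse leukaemia driven by MLL-AF9 and started from LSK cells was followed in the bone marrow and the spleen of 4 NSG mice, numbered 9 to 12. Each mouse gave 1 library per tissue, so 8 libraries were compared, of 45 mouse tissue libraries in the series, which also has 3 libraries of cell pools. The 4 marrow libraries were set against the 4 spleen libraries, paired by mouse number, and the LSK pool taken before transplantation served as the reference. LSK cells are sorted as Lin-, c-Kit+ and Sca-1+ and include haematopoietic stem cells. They came from the marrow of female C57BL/6 donors aged 6 to 8 weeks, were transduced with an MLL-AF9 retrovirus and with the SPLINTR barcode library, and were kept in culture with IL-3, IL-6 and SCF. All LSK recipients therefore share the oncogene, the cytokine culture and 1 barcoded pool. NSG mice are immunodeficient and have no mature T, B or NK cells, so lymphoid immunity is missing. The age and sex of the recipients, the number of cells injected and the time of harvest are not given in the sources used here. Further comparisons used 3 immunocompetent Ptprca mice that received LSK cells, 4 NSG mice that received leukaemia of GMP origin (granulocyte-monocyte progenitors), and 3 NSG mice that received both kinds.

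MLL-AF9 joins a chromatin regulator to a transcriptional elongation partner and confers self-renewal on myeloid progenitors. After transplantation the resulting leukaemia grows in the marrow and in the spleen, an organ of blood formation in the adult mouse. How the cells reached each tissue was not followed here. A DNA barcode is copied to every descendant of a labelled cell, so all cells with 1 barcode form a clone, and the clone's share of the barcode reads follows its share of the cells. A share says nothing of how many leukaemia cells a tissue held.

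The smallest value above 0 of each library was taken as 1 read. Barcode reads per library then ranged from 7200372 to 8499553 in marrow and from 6012619 to 7628176 in spleen, and the pool had 5871935. The LSK library carries GFP_ names, and between 99.859% and 99.985% of the reads of each of the 8 libraries had such a name, as the label of LSK origin requires. Shares below are percentages of these GFP_ reads, and 100 CPM (counts per 1000000 reads) equals 0.01%, or 601 to 850 reads. Reads with an mCHERRY_ name, which belong to the GMP library, made up 0.128% in the spleen of mouse 10 and 0.103% in the marrow of mouse 12, against at most 0.0381% in the other 6 libraries. Clones of 1 to 10 reads numbered 178 in the marrow of mouse 11, 68 in the spleen of mouse 10 and 41 in the marrow of mouse 12, against 7 to 9 in the others. Counts of all clones above 0 moved with them and are plotted below without being compared. The spread between repeat preparations of a tissue is unknown, because the PCR duplicates had been collapsed, so a difference between marrow and spleen includes that of sampling and PCR.

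Marrow and spleen held nearly the same number of clones at or over 100 CPM, and the order of the tissues turned when smaller clones were counted as well. At or over 100 CPM, mouse 9 had 38 clones in marrow and 37 in spleen. Mouse 10 had 35 and 34, mouse 11 had 37 and 34, and mouse 12 had 49 and 46. Marrow was ahead in 4 of 4 mice, by 1 to 3 clones, while the mice themselves differed by up to 14 clones within marrow. The mean log2 ratio of marrow to spleen was 0.07 ± 0.04 (SD, n = 4), a 1.05-fold difference, with an exact two-sided sign-flip permutation p of 0.125 (4 mice cannot give a smaller one) and an adjusted p of 0.229 over 11 tests. At or over 10 CPM spleen was ahead in 4 of 4 mice, with 51 clones in marrow and 68 in spleen of mouse 9, 53 and 66 in mouse 10, 55 and 60 in mouse 11, and 73 and 74 in mouse 12. There the log2 ratio was -0.22, again with the smallest exact permutation p of 0.125. The turn came from clones between 10 and 100 CPM, which numbered 13 to 24 in marrow and 26 to 32 in spleen, with no overlap between the tissues (18.3 ± 4.5 and 29.3 ± 2.75, SD, n = 4).

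**Figure D1:**
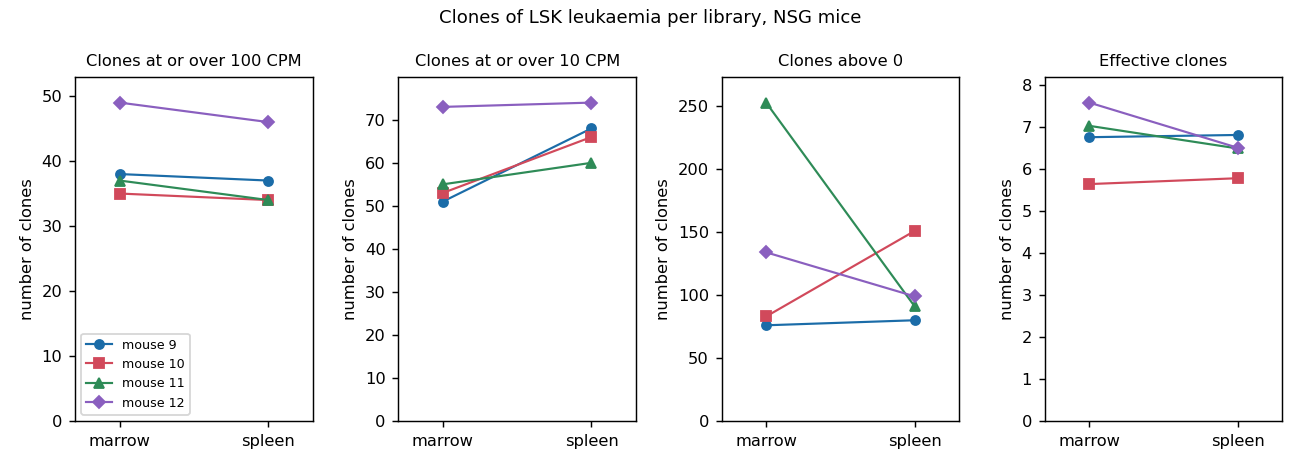
Number of clones (y axes, from 0) in the marrow and spleen library of each mouse (1 symbol and line per mouse), at 3 detection limits and as effective clones. Lines fall slightly from marrow to spleen at 100 CPM (38 to 37, 35 to 34, 37 to 34 and 49 to 46), rise at 10 CPM, and cross for clones above 0, where the marrow of mouse 11 stands at 253.

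The effective number of clones weights each clone by its share and is the exponential of the Shannon entropy, that is, how many equal clones would be as diverse. It was 6.76 in marrow and 6.81 in spleen of mouse 9, 5.64 and 5.78 in mouse 10, 7.03 and 6.49 in mouse 11, and 7.58 and 6.50 in mouse 12. The tissues split the mice evenly, with marrow ahead in 2 and spleen in 2 (log2 ratio 0.07 ± 0.12, SD, n = 4, exact sign-flip permutation p = 0.5). The pool had 296 effective clones, 679 clones at or over 100 CPM and 1209 above 0.

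In each library 4 clones held 80.2% to 93.1% of the reads, and 10 clones held 94.3% to 98.0%. Over the 8 libraries, 9 clones had a mean at or over 1% and are called large here. Together they held 93.6% of marrow and 94.6% of spleen. The 46 clones with a mean from 0.01% to 1% (middle) held 6.22% and 5.26%, and the remaining 308 (small) held 0.173% and 0.109%. Of 82 clones that reached 100 CPM in any of the 8 libraries, 17 reached it in all 8 and 27 in only 1. Both tissues showed 48 of the 82 in at least 1 mouse each, while 21 reached 100 CPM only in marrows and 13 only in spleens.

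GFP_Barcode_29850 was the largest clone by mean and led 4 libraries. It held 16.96%, 27.4%, 32.5% and 21.7% of the marrow of mice 9, 10, 11 and 12, and 33.9%, 28.1%, 29.6% and 15.7% of their spleens. Its largest tissue difference lay in mouse 9, where the spleen share was the higher, and in mouse 12 the marrow share was the higher. GFP_Barcode_7785, the second, held 11.8%, 25.6%, 21.3% and 21.7% of the marrows and 9.85%, 28.1%, 20.6% and 20.9% of the spleens. Its tissues stayed close within each mouse (root mean square log2 difference 0.15), whereas the mice of a tissue lay further apart (0.81), with both tissues of mouse 9 low.

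GFP_Barcode_100907 held 17.95%, 20.7%, 18.9% and 17.3% of the marrows and 24.9%, 14.996%, 18.5% and 24.4% of the spleens. Its spread between the tissues of a mouse (0.41) and between mice (0.37) was about equal. GFP_Barcode_1859 held 16.3%, 19.4%, 13.3% and 24.4% of the marrows and 15.7%, 20.0%, 18.2% and 27.0% of the spleens, and led both tissues of mouse 12. Each of these 4 clones reached at least 9.85% in every library, and none of the 4 was higher in the same tissue in all mice.

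GFP_Barcode_148344 was large in mouse 9 alone. It was the largest clone of that marrow at 28.9%, held 3.89% of the spleen of the same mouse, and was at or under 0.000306% in the other 6 libraries. It had been the 11th clone of the pool, at 1.05%. The other 4 large clones held 0.117% to 3.87% in every library. Of them, GFP_Barcode_20873 was higher in spleen in 4 of 4 mice, with 0.647%, 0.832%, 1.28% and 0.915% of marrow against 2.17%, 1.23%, 3.07% and 1.97% of spleen. The groups overlapped slightly, through the spleen of mouse 10 and the marrow of mouse 11. GFP_Barcode_2255 was also higher in spleen in 4 of 4 mice, with 0.117%, 0.382%, 2.24% and 1.86% of marrow against 0.492%, 0.528%, 3.87% and 2.45% of spleen. For this clone mice 11 and 12 were high in both tissues and mice 9 and 10 low in both. GFP_Barcode_15135 was higher in marrow in mice 9, 10 and 11 and in spleen in mouse 12, and GFP_Barcode_74372 was higher in marrow in mice 9 and 12 and in spleen in mice 10 and 11.

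**Figure D2:**
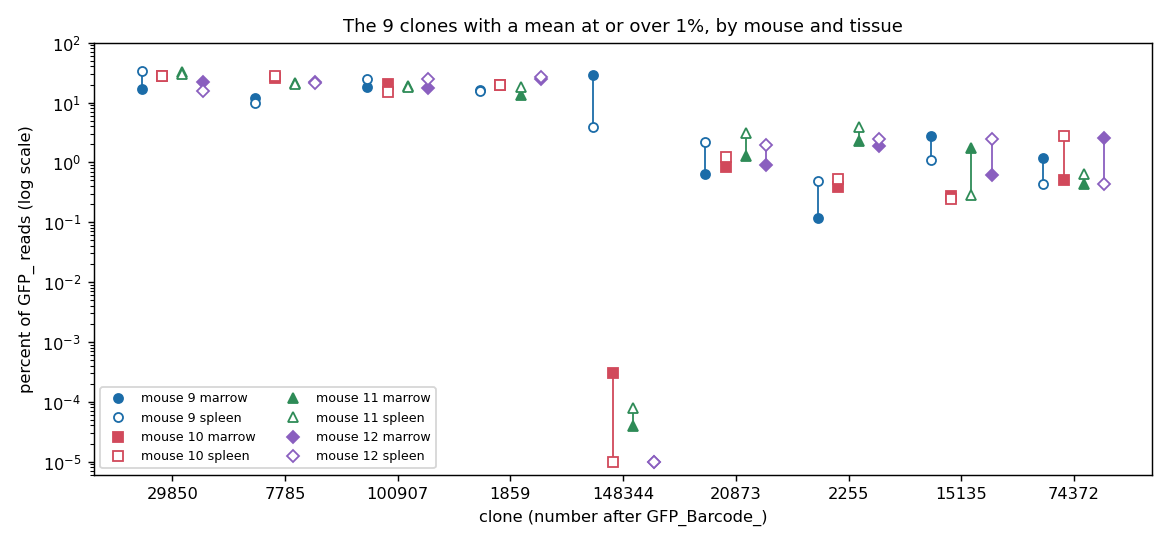
Share of GFP_ reads (y axis, percent, log scale) of the 9 large clones in marrow (filled symbols) and spleen (open symbols) of each mouse, the tissues of a mouse joined by a line; a share of 0 is drawn at the bottom of the scale. The 4 leading clones lie near the top in all 8 libraries, and GFP_Barcode_148344 reaches 28.9% and 3.89% in mouse 9 and lies far below in the other mice.

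The share of each library's largest clone was 28.3% ± 3.35 in marrow and 29.7% ± 3.05 in spleen (SD, n = 4). The paired difference was -1.36 ± 3.31 percentage points (SD, n = 4, exact sign-flip permutation p = 0.5), with spleen ahead in 3 mice. The tissues of a mouse had the same largest clone in mice 11 and 12 and different ones in mice 9 and 10. In mouse 10 the change of leader was a matter of 28.12% for GFP_Barcode_29850 and 28.14% for GFP_Barcode_7785 in spleen.

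limma called no clone between marrow and spleen, whereas DESeq2 called 8. The 55 clones of the large and middle classes, whose mean was 100 CPM or more, were tested with limma on log2(CPM + 10), with the mouse as a block, and 0% of them were called at an adjusted p under 0.05. At an unadjusted p under 0.05 there were 4, and the smallest adjusted p was 0.655. Of the 55, 27 had a higher estimate in marrow and 28 in spleen (median log2 difference -0.11). The method sets the limits of what could be seen. The half-width of the 95% confidence interval was 0.33 log2 for the largest clone and 3.004 log2 for the median clone, so an 8-fold difference of a middle clone would lie at the edge of detection before adjustment. Since the fit shares its estimate of spread between clones of like abundance, the interval of a single clone does not reflect its own mice, which are given beside it. On recovered reads, edgeR's quasi-likelihood test called 0 clones, and the 8 of DESeq2 were 14.5% of those tested, 2 higher in marrow and 6 in spleen. Of these, GFP_Barcode_7280 held 0.139% of the spleen of mouse 9 and at most 0.0025% of any other library. GFP_Barcode_885 and GFP_Barcode_14854 were higher in spleen in 3 mice but in marrow in mouse 12 (4.55 log2) and mouse 11 (4.93 log2), respectively. GFP_Barcode_7606 and GFP_Barcode_12105 kept 1 direction in 4 of 4 mice, in part on very low shares. For GFP_Barcode_12105 these were 0.00111% of marrow against 0.000351% of spleen in mouse 10, and 0.000156% against 0% in mouse 11. For GFP_Barcode_7606 mouse 9 rested on a single read.

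The 5 clones with the smallest limma p were all middle clones, and 2 of them, GFP_Barcode_7606 and GFP_Barcode_101397, were higher in the same tissue in 4 of 4 mice. Over all tested clones, marrow was higher in 4 of 4 mice for 0 of 9 large and 2 of 46 middle clones. Spleen was higher in 4 of 4 mice for 2 large and 2 middle clones. With either direction equally likely in each mouse, a clone would keep 1 direction in 4 of 4 mice with a probability of 0.125. No excess over that rate was tested. GFP_Barcode_12669 held 0.105%, 0.135% and 0.638% of the marrow of mice 9, 10 and 12 against 0.000749%, 0.0637% and 0.00342% of the spleen, and had 0 reads in both tissues of mouse 11. Marrow was thus higher wherever the clone was found (3.54 log2, 95% interval 0.53 to 6.55, adjusted p = 0.655 by limma). GFP_Barcode_7606 ran the other way, with 1.66e-05%, 0.00754%, 0.0114% and 0.290% of the spleens and at most 0.0017% of any marrow. Spleen was higher in 4 of 4 mice, in mouse 9 by a single read (-3.35 log2, interval -6.36 to -0.34, adjusted p = 0.655 by limma). Both clones, and GFP_Barcode_15061, were among the 8 that DESeq2 called.

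GFP_Barcode_15061 held 0.00541%, 0.171% and 0.0495% of the spleens of mice 9, 10 and 11 against at most 0.00616% of any marrow, and had 0 reads in the spleen of mouse 12. GFP_Barcode_8037 held 0.0439% of the marrow and 0.939% of the spleen of mouse 9 and 0.230% and 1.34% in mouse 12, but 1.16% and 0.939% in mouse 10 and 1.45% and 1.64% in mouse 11. Its spleens were alike and its marrows were low in mice 9 and 12 only. GFP_Barcode_101397 held 0.618%, 0.468%, 0.512% and 1.17% of the marrows and 0.197%, 0.321%, 0.0243% and 0.555% of the spleens. It was higher in marrow in 4 of 4 mice (1.90 log2, interval -0.15 to 3.96, adjusted p = 0.655 by limma). Among the large clones GFP_Barcode_20873 had the lowest p, at -1.17 log2 (interval -2.44 to 0.10, adjusted p = 0.655 by limma), and GFP_Barcode_2255 stood at -0.93 log2 (interval -2.41 to 0.55, adjusted p = 0.821).

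**Figure D3:**
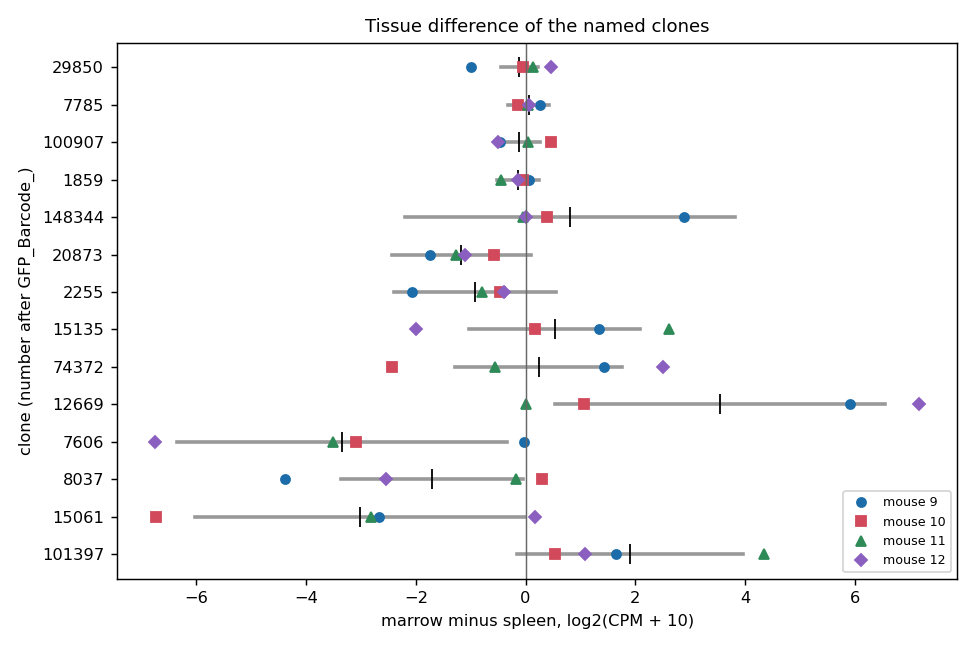
Difference of marrow minus spleen (x axis, log2(CPM + 10)) for the 9 large clones (upper rows) and the 5 clones with the smallest p (lower rows), with 1 symbol per mouse, the mean as a tick and limma's 95% interval as a grey bar. The 4 leading clones sit near 0, GFP_Barcode_20873 and GFP_Barcode_2255 are left of 0 in all 4 mice, and GFP_Barcode_101397 is right of 0 in all 4.

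Clones limited to a tissue were few and small. A clone was called tissue-limited in a mouse when it reached 100 CPM in the marrow or spleen and stayed under 10 CPM in the other tissue. By that rule 3 clones were limited to marrow and 5 to spleen in mouse 9, 3 and 4 in mouse 10, 1 and 3 in mouse 11, and 6 and 4 in mouse 12. The spleen had more in mice 9, 10 and 11 and the marrow in mouse 12 (mean difference -0.75 ± 1.89 clones, SD, n = 4, exact sign-flip permutation p = 0.625). The difference turned to 0.25 clones with limits of 1000 CPM and under 100 CPM, and it ranged from -1.67 to -0.333 with 1 mouse left out. These clones held 0.0353% to 0.157% of a marrow and 0.0454% to 0.245% of a spleen in all, and the largest single one held 0.171%. The clones that reached 100 CPM in both tissues of a mouse, 23 to 35 in number, held 98.7% to 99.6% of each library.

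The 29 cases came from 27 clones, 12 limited to marrow and 15 to spleen. Only 6 of the 29 had 0 reads in the other tissue. All 27 clones were in the pool, with a median share of 0.0607%, and 12 of them reached 100 CPM in another mouse. A pair of clones repeated. GFP_Barcode_81008 was limited to marrow in mice 10 and 12, at 0.0259% and 0.0116% of the marrow, and in mouse 11 its spleen share of 0.00203% was above that of marrow. GFP_Barcode_55490 was limited to spleen in mice 9 and 11, at 0.0179% and 0.0126%, while in mice 10 and 12 it held 0.0144% and 0.0614% of the marrow against 0.0074% and 0.0505% of the spleen. Neither clone therefore kept to its tissue in all 4 mice.

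Of the other clones limited to marrow, GFP_Barcode_12669 held 0.105% in mouse 9 (95% Wilson interval 0.103 to 0.107) against 45 reads in spleen. GFP_Barcode_60040 held 0.0561% in mouse 12, GFP_Barcode_113957 0.0415% in mouse 9 and GFP_Barcode_39656 0.0353% in mouse 11. In spleen the largest was GFP_Barcode_15061 with 0.171% in mouse 10 against 52 reads in marrow. GFP_Barcode_7280 held 0.139% of the spleen of mouse 9 (95% Wilson interval 0.136 to 0.142) and had 0 reads in the marrow, which allows a share of up to 4.00e-05% there (3 reads) and makes it at least 3480.3-fold higher in spleen. GFP_Barcode_4247 held 0.0457% in mouse 10, and GFP_Barcode_14854 held 0.0355% in mouse 12 against 2 reads in marrow. Wilson intervals and limits cover counting error only, since PCR reads are not independent molecules.

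**Figure D4:**
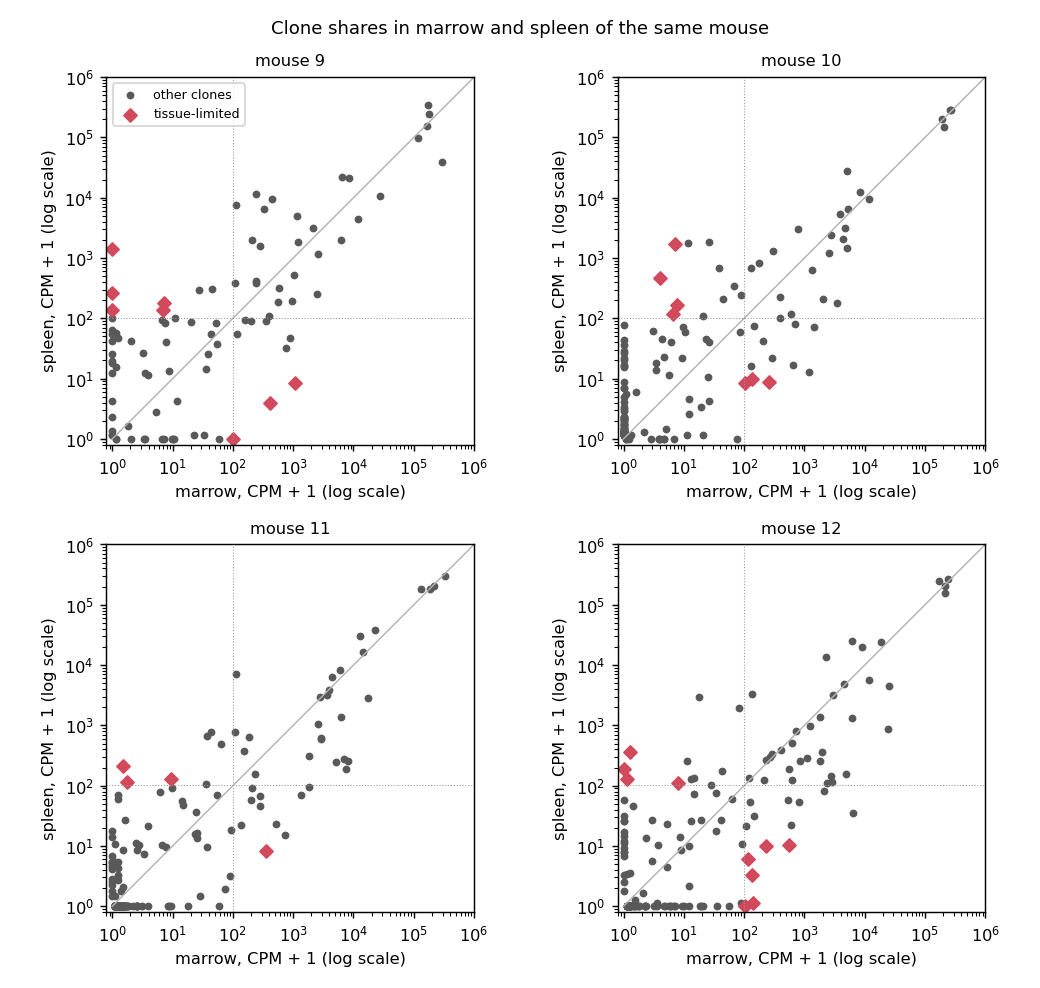
Marrow against spleen in each mouse, 1 point per clone above 0 in that mouse, both axes in CPM + 1 on a log scale; dotted lines mark 100 CPM, the grey line marks equal shares, and red diamonds are tissue-limited clones. The 4 leading clones lie near the line of equal shares, other large clones lie up to 5.40-fold to 7.43-fold off it depending on the mouse, and the scatter widens towards small clones, with the 29 tissue-limited cases all at or under 0.171%.

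The mean overlap of marrow and spleen was higher within a mouse than between mice at each clone size, by tests that could not pass the threshold after adjustment. The Bray-Curtis overlap sums, over clones, the smaller of a clone's shares in 2 libraries, as a percentage of the mean of their totals. A clone found in both libraries at unequal shares therefore lowers it. Over all clones it was 68.6% in mouse 9, 92.0% in mouse 10, 90.0% in mouse 11 and 84.7% in mouse 12. Between a marrow and a spleen of different mice it ranged from 63.3% to 89.0%. The means were 83.8% over the 4 pairs of the same mouse and 76.9% over the 12 pairs of different mice. That excess of 6.87 percentage points was the highest of the 24 ways to assign the spleens to the marrows (exact one-sided permutation p = 0.0417, the smallest possible, adjusted p = 0.0917). The threshold was an adjusted p of 0.05. None of the 11 tests could pass it, even if each gave its smallest possible p, so the adjusted values decide nothing here.

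The excess differed between the size classes in an order that turned with the setting, and the classes were not tested against each other. Large clones overlapped by 86.2% within a mouse and 79.5% between mice, an excess of 6.72 points. Middle clones overlapped by 47.1% and 38.4% (8.68 points), and small clones by 25.9% and 10.7% (15.2 points). Each had the same smallest exact one-sided permutation p of 0.0417 and adjusted p of 0.0917. Classes rest on the mean over the same 8 libraries, so a clone high in 1 mouse can enter a class through that mouse. GFP_Barcode_148344 is large through mouse 9 alone, and GFP_Barcode_8263 is a middle clone through mouse 11 alone. Such clones favour pairs of the same mouse, and their part in the excess was not tested. With classes formed by share of the pool the excess was 6.06 points for the upper, 9.46 for the middle and 6.28 for the lower class (exact permutation p = 0.292 for the last). For middle clones the excess was 5.63 without mouse 9, 5.64 without mouse 10 and 13.3 without mouse 11, and for small clones it was 9.51 without mouse 12. Middle clones also gave the least clear match, since 1 of 4 marrows was closest to the spleen of its own mouse, against 3 of 4 for large, 4 of 4 for small and 4 of 4 for all clones. In the other direction 3 of 4 spleens were closest to their own marrow over all clones, and the spleen of mouse 9 was closer to the marrow of mouse 11 (80.9%) than to its own (68.6%). That marrow of mouse 9 is the library led by GFP_Barcode_148344.

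For large clones the result depended on the measure. With Spearman's correlation over the 9 large clones the excess was 0.23 (exact permutation p = 0.0833), with the Jaccard index at 10 CPM it was 5.56 points (p = 0.25), and with the median absolute log2 difference it turned, to -0.04 (p = 0.625). The Jaccard index within a mouse was 100% in every pair, since all large clones passed or failed 10 CPM together in both tissues. Only GFP_Barcode_148344 failed that limit in any library, namely in mice 10, 11 and 12, so the excess of 5.56 points came from that clone. Among clones at or over 100 CPM in either tissue of a mouse, the median large clone differed between tissues by 2.53-fold in mouse 9, 1.25-fold in mouse 10, 1.42-fold in mouse 11 and 1.39-fold in mouse 12. The median middle clone differed by 4.45-fold to 6.09-fold. Middle clones that pass that limit through only 1 tissue had to differ, so this comparison between classes is a description.

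**Figure D5:**
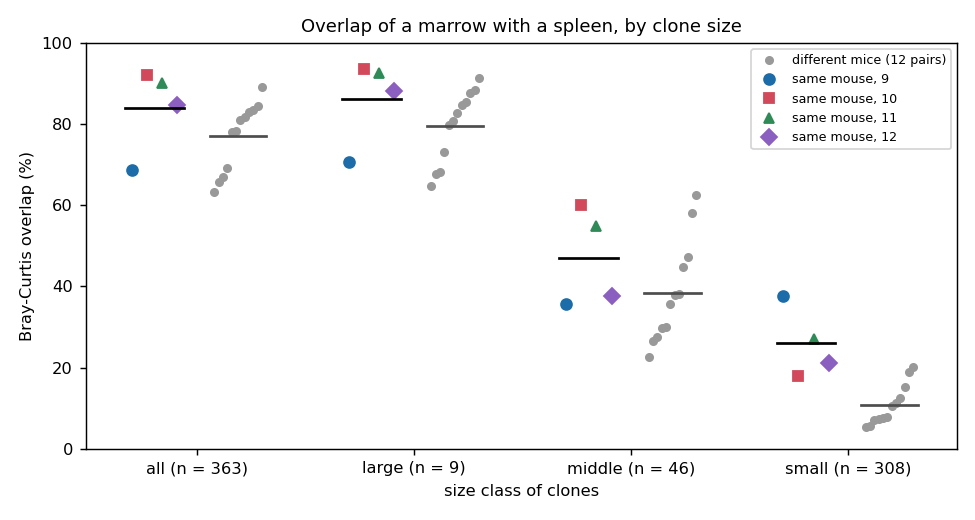
Bray-Curtis overlap (y axis, percent) of a marrow with the spleen of the same mouse (coloured symbols, 4 pairs) and of different mice (grey points, 12 pairs), for all clones and for the 3 size classes, with means as bars. The same-mouse mean is above the different-mouse mean in each class, at 86.2% against 79.5% for large and 25.9% against 10.7% for small clones, and the points of the groups overlap.

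No greater likeness of libraries of different mice within a tissue than across tissues was detected. Pairs of marrows overlapped by 74.8% on average, pairs of spleens by 78.0% and a marrow with the spleen of another mouse by 76.9%. The mean of same-tissue pairs minus that of different-tissue pairs was -0.50 percentage points (exact one-sided permutation p = 0.875 over 8 swaps of the tissue labels, of which the smallest possible is 0.125).

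Larger clones of the pool were found more often in the mice, in both tissues. Of 51 clones at or over 0.5% of the pool, 39.2% reached 100 CPM in at least 1 of the 8 libraries, against 13.2% of 281 clones from 0.05% to 0.5% and 2.85% of 877 clones under 0.05%. Per mouse the first class gave 12 ± 1.83 clones in marrow and 10 ± 1.41 in spleen, the second 16.8 ± 2.5 and 17.8 ± 2.87, and the third 11 ± 2.71 and 10 ± 2.45 (SD, n = 4). The tissue means of a class differed by at most 2 clones. Their summed shares were 73.0% ± 7.47 of marrow and 69.9% ± 4.35 of spleen for the first class and 4.67% ± 2.21 and 6.51% ± 1.34 for the third. GFP_Barcode_20873 had ranked 558 in the pool, and its mean in the mice was 83.8-fold its pool share of 0.0181%. GFP_Barcode_15135 had a mean 1.58-fold its pool share of 0.747% and was below that share in both tissues of mouse 10, the spleen of mouse 11 and the marrow of mouse 12. The largest clone of the pool, GFP_Barcode_13743, held 2.55% of it and a mean of 2.0e-05% in the mice.

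Ptprca mice that received cells of the same pool had a wider gap between marrow and spleen in clone number. The test of this difference could not pass the threshold after adjustment, whatever its outcome, so the adjusted p decides nothing here. Ptprca mice 1, 2 and 3 had 110, 113 and 126 clones at or over 100 CPM in marrow and 65, 65 and 73 in spleen, a log2 ratio of 0.78 ± 0.02 (SD, n = 3), against 0.07 ± 0.04 in NSG mice. No NSG mouse reached a Ptprca mouse. The difference of the differences was -0.71 log2 (exact two-sided permutation p = 0.0286, the smallest that 4 against 3 mice allow, adjusted p = 0.0917, past the threshold only before adjustment), and -0.33 at 10 CPM (p = 0.0571). The hosts came in separate tables, so host and any preparation that followed it cannot be told apart. Against NSG mice with GMP leukaemia, whose log2 ratio was 0.18 ± 0.21 (SD, n = 4), the difference was -0.11 log2 (exact permutation p = 0.4).

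The tissue preference of named clones was looked up in mice outside the comparison, without a test. Of the 9 large clones, which were not picked by tissue difference, 4 kept their direction in all 3 Ptprca mice and 2 in all 3 mixed NSG mice. The 4 were GFP_Barcode_100907, GFP_Barcode_1859, GFP_Barcode_2255 and GFP_Barcode_15135, and the 2 were GFP_Barcode_7785 and GFP_Barcode_1859. For GFP_Barcode_7785, GFP_Barcode_100907 and GFP_Barcode_15135 the direction in mice 9 to 12 itself turned with 1 mouse left out, so they had little direction to keep. The share over all tested clones was not counted. Of the 5 clones with the smallest p, 3 kept their direction in all 3 Ptprca mice and 2 in all 3 mixed NSG mice, and GFP_Barcode_101397 was the clone among both. In Ptprca mice 1, 2 and 3 it held 0.577%, 1.66% and 1.15% of marrow against 0.242%, 0.274% and 0.388% of spleen, and among GFP_ reads of the mixed NSG mice 21, 22 and 23 it held 0.169%, 1.48% and 3.32% against 0.075%, 0.256% and 0.17%. GFP_Barcode_8037, higher in spleen on average in mice 9 to 12, was higher in marrow in all 3 Ptprca mice (mean 1.41 log2) and in spleen in all 3 mixed NSG mice (-2.78 log2). GFP_Barcode_12669 was higher in marrow in 3 of 3 Ptprca mice but in 1 of 3 mixed NSG mice. GFP_Barcode_2255 was higher in spleen in the 3 Ptprca mice, with 7.46%, 8.89% and 6.52% of spleen against 1.18%, 1.17% and 0.274% of marrow, but in only 1 of the 3 mixed NSG mice. GFP_Barcode_20873 was higher in spleen in 2 of 3 mice of each kind. GFP_Barcode_148344 reached at most 0.0228% in any of these mice. Of the 9 large clones, the mean difference had the sign seen in mice 9 to 12 for 7 in Ptprca mice and for 5 in mixed NSG mice.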

How the data were processed

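Barcodes were counted in bone marrow and spleen, with 2 PCR duplicates per tissue that the authors collapsed (how is not given in the sources used here). The deposited values are CPM, which the authors scaled so that each library sums to 1000000. Bowtie 1.2.2 and R 3.6 are named per the submitters' processing notes. The labels give genomic DNA as the molecule, while their extraction protocol describes a droplet preparation of single cells. All values above 0 were whole multiples, within 0.01, of the smallest value above 0 of their library (100%). That smallest value was taken as 1 read, and reads were recovered on this assumption, which was not tested. Another 22 columns of the tables were not used.

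GFP_ barcodes were rescaled to 1000000 within each library, and a barcode missing from a table was taken as 0. The mouse was the replicate. The labels number tissues by animal, so marrow and spleen were paired. Paired differences were tested by exact sign-flip permutation (16 patterns), likeness by the 24 assignments of spleens to marrows, and groups of mice by exact permutation, with Benjamini-Hochberg adjustment over 11 tests. Clones averaging 100 CPM or more were tested with limma 3.58.1 (R 4.3.3) on log2(CPM + 10) with the mouse as block and a trended variance, with edgeR 4.0.16 and DESeq2 1.42.0 on recovered reads as alternatives. The likeness tests and the limma fit were checked on simulated data. Other settings varied detection limits, pseudocounts, filters, measures of likeness, scaling and the mice included.

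Named clones were those with a mean at or over 1%, the 5 with the smallest p since limma called none, and up to 5 tissue-limited clones per tissue. The samples, clones and tests were chosen with earlier results of these data known. Depth was 6012619 to 8499553 recovered reads per library. If the smallest value is 1 read, a count of 0 allows a share of up to 3.53e-05% to 4.99e-05% (3 reads).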

Additional observations from a re-analysis of the deposited data

Results flagged for a closer look

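Values in groups of 4 were compared with Dixon's criterion for a sample far from the others, over 40 groups. Chance alone flags about 1 in 20 where values are normally distributed. Clone shares are skewed and often near 0, and some clones were named for a high value, so that rate need not hold here. In marrow this marked mouse 9 for GFP_Barcode_148344 (28.9%), mouse 12 for GFP_Barcode_7606 (0.0017%), mouse 11 for GFP_Barcode_15061 (0.00616%) and mouse 12 for mCHERRY_ reads (0.103%). In spleen it marked mouse 9 for GFP_Barcode_148344 (3.89%), mouse 10 for GFP_Barcode_74372 (2.74%), mouse 10 for GFP_Barcode_12669 (0.0637%) and mouse 12 for GFP_Barcode_7606 (0.290%). The values of GFP_Barcode_148344 stand apart in both tissues of mouse 9.

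The tissue difference in detected clones differed between NSG and Ptprca recipients of LSK cells by -0.708 log2 (exact two-sided permutation p = 0.0286, adjusted p = 0.0917, with marrow ahead in 4 of 4 NSG and 3 of 3 Ptprca mice).

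Barcodes of the GMP library, which these mice did not receive according to their labels, made up 0.128% of the reads in the spleen of mouse 10 and 0.103% in the marrow of mouse 12. Without mice 10 and 12, an alternative chosen after seeing the data, detected clones gave a log2 ratio of 0.08 and limma called 0 clones (1 at an unadjusted p under 0.05).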

How the results depend on the processing

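Detected clones turned from 0.073 to -0.219 log2 at 10 CPM, and tissue-limited clones from -0.75 to 0.25 when defined by 1000 and under 100 CPM (exact permutation p = 1). The same-mouse excess of overlap kept its sign but not its p with the median absolute log2 difference (all clones 0.00174, middle 0.175), for large clones with Spearman's correlation (0.228) and the Jaccard index (5.56), and for small clones classed by their share of the pool (6.28, exact permutation p = 0.292). For large clones the median absolute log2 difference gave -0.0393, and for small clones 0. The difference from Ptprca mice was -0.330 at 10 CPM (exact permutation p = 0.0571), and that from GMP recipients turned to 0.00332 with effective clones. DESeq2 called 8 clones and each other setting 0, among them the fit with no replicate block. With libraries centred on the median clone, 22 estimates were higher in marrow and 33 in spleen against 27 and 28, and GFP_Barcode_7785 and GFP_Barcode_74372 turned to -0.330 and -0.148. The cause of these changes was not tested.

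Leaving out 1 mouse in turn moved the excess of overlap to 5.63 to 7.90 (all clones), 5.75 to 7.47 (large), 5.63 to 13.3 (middle) and 9.51 to 16.9 (small), where 3 mice allow no exact permutation p under 0.167. Likewise detected clones ranged from 0.0571 to 0.0850 log2, effective clones from 0.0229 to 0.108, the largest clone from -2.76 to -0.136 points, tissue-limited clones from -1.67 to -0.333, same-tissue overlap from -0.747 to -0.0248, and the differences from Ptprca and GMP recipients from -0.724 to -0.696 and from -0.189 to -0.0251. Signs of single clones turned for GFP_Barcode_29850 (-0.302 to 0.185), GFP_Barcode_7785 (-0.0118 to 0.12), GFP_Barcode_100907 (-0.311 to 0.0101), GFP_Barcode_15135 (-0.163 to 1.38) and GFP_Barcode_74372 (-0.520 to 1.13). Without mice 10 and 12, chosen after seeing the data, tissue-limited clones differed by -2 and the excess was 6.01, 5.41, 14.9 and 24.8 for all, large, middle and small clones, with 2 mice left and an exact permutation p of 0.5. With 4 mice the sign-flip tests could not pass 0.05, nor could any of the 11 tests after adjustment. Clones under 10 CPM rest on fewer than 60 to 85 reads.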

Other observations

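Clones between 10 and 100 CPM were also more numerous in spleen than in marrow in other recipients, a count made after the pattern had been seen in mice 9 to 12 and given without a test. In Ptprca mice with LSK cells they numbered 77 ± 7 in marrow and 111 ± 9.5 in spleen (SD, n = 3), higher in spleen in 3 of 3 mice. In NSG mice with GMP leukaemia they numbered 23.3 ± 8.06 and 33.0 ± 7.62 (SD, n = 4), higher in spleen in 4 of 4. Among the LSK clones of mixed NSG mice they numbered 18 ± 3 and 20.3 ± 7.64 (SD, n = 3), higher in spleen in 2 of 3. In the same Ptprca mice, clones at or over 1000 CPM went the other way, with 57 ± 3.61 in marrow and 24.3 ± 2.08 in spleen. All clones at or over 10 CPM numbered 193 ± 15.3 in marrow and 179 ± 13.7 in spleen of Ptprca mice (SD, n = 3). Marrow was thus ahead at that limit in 3 of 3, unlike in mice 9 to 12. In NSG mice with GMP leukaemia spleen was ahead at that limit in 4 of 4.

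Of 8 tissue-limited clones looked up in other recipients, 2 kept their direction in all 3 Ptprca mice and 2 in none, and none kept it in all 3 mixed NSG mice. GFP_Barcode_55490, limited to spleen in mice 9 and 11, was higher in marrow in all 3 Ptprca mice (mean 3.48 log2). GFP_Barcode_39656, limited to marrow in mouse 11, was higher in marrow in all 3 Ptprca mice, with 0.354%, 0.648% and 0.874% against 0.110%, 0.0251% and 0.0898% of spleen. In mixed NSG mice it was higher in marrow in 2 of 3.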
